A study of Mus musculus with 12 samples.

Results

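Described here are 10 mouse genes that are switched on by fibroblast growth factor (FGF) and extracellular signal-regulated kinase (ERK) signalling and mostly feed back on it: Spry1, Spry2, Spry4, Spred1, Spred2, Dusp4, Dusp5, Dusp6, Etv4 and Etv5. All probe sets annotated to only one of these symbols were taken, which gave 28 of the 45037 probe sets and 10 of the 18193 genes tested. Spred1 had 8 probe sets, Spred2 had 5, Spry4 had 4, Etv5 had 3, Spry2 and Etv4 had 2 each, and Spry1, Dusp4, Dusp5 and Dusp6 had 1 each. No filter on low values was applied, so every member entered every test.

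RNA was measured on 12 one-colour Affymetrix arrays from eGFP astrocytes that had lain for 22 h on a mouse brain section and were then picked off it. The 4 groups of 3 arrays were adult astrocytes on APdE9 sections, adult astrocytes on wild-type sections, neonatal astrocytes on APdE9 sections and neonatal astrocytes on wild-type sections. APdE9 mice carry chimeric mouse/human APPSwe and PS1-dE9 transgenes, each under a mouse prion protein promoter, and model brain amyloid. Their wild-type littermates gave the other sections. The transgenes were in the sections, while the astrocytes of all 4 groups came from C57Bl/6j cortex and hippocampus with the eGFP transgene alone. Adult cells came from mice of 6 to 8 weeks. The labels give the neonatal age as 3 d, and the protocol text gives it as 2 days. Percoll was used to purify the adult cells, whose medium was DMEM/F12 plus G5, a supplement that supplies epidermal and fibroblast growth factors with other additives. Neonatal cells had DMEM and neither Percoll nor G5. Age, medium, G5 and Percoll therefore cannot be told apart. The medium used during the time on the section is not given in the sources used here. Arrays of a group are labelled as biological replicates, each from pooled samples (n = 3). All p-values therefore measure the spread between pools, part of which may be technical.

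FGF ligands bind receptor tyrosine kinases that recruit adaptors, load RAS with GTP and drive the RAF, MEK and ERK kinases. Active ERK induces its own brakes: Sprouty and Spred proteins act between the receptor and RAF, and dual-specificity phosphatases remove phosphate from ERK. The PEA3-type factors Etv4 and Etv5 are transcriptional outputs of the same pathway. In astrocytes FGF signalling acts on proliferation and on the choice between resting and reactive states.

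The deposited log2 signals are centred, with each probe set at a median of zero across all 12 arrays. Values of 1 gene can therefore be compared between groups, but levels of different genes cannot, and no level over background can be given. A gene value is the mean of its probe sets. A difference was called where limma's moderated test, adjusted by Benjamini-Hochberg over all genes or all probe sets, gave p under 0.05.

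On APdE9 sections, adult astrocytes had higher Spred2, Spred1 and Etv5 than on wild-type sections, by 1.48-fold, 1.37-fold and 1.31-fold. Neonatal astrocytes had 1.42-fold higher Etv5 on APdE9 than on wild-type sections, and no other member was called. Etv5 was also the sole member called between ages, and it was lower in adult cells on both sections (0.663 times the neonatal signal on APdE9 sections and 0.721 times on wild-type sections). Spry1, Spry2, Spry4, Dusp4, Dusp5, Dusp6 and Etv4 passed no gene-level test in the main fit. That fit held all 12 arrays, with no replicate block and no array weights. Spry1, Dusp4, Dusp5, Dusp6 and Etv4 were called in some other fits, given below. Each array held RNA from many cells, so fewer cells expressing a gene and less of its RNA per cell cannot be told apart.

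These counts stand beside broad change in some comparisons. In adult cells 3 of 10 members were higher on APdE9 than on wild-type sections and none was lower, where 17.7% of all genes were called and 8.26% were higher. The members' median log2 difference was 0.15, against 0.05 over all genes. In neonatal cells 1 of 10 was higher and none lower, where 3.76% of all genes were called and 1.21% were higher, and the members' median was -0.02 against 0.00. With the replicate number as a block, 2 members were higher and 1 was lower in neonatal cells. For age, 1 of 10 members was lower on APdE9 sections, where 23.5% of genes were called and 11.9% were lower, with a median of 0.10 against 0.05. On wild-type sections 1 of 10 was lower in adult cells, where 30.1% of genes were called and 15.2% were lower, with a median of -0.04 against 0.01. The difference of the section effects, adult minus neonatal, was called by limma for 0 of 10 members, where 10.1% of genes were called. In that comparison 0 members had an unadjusted p under 0.05, and 1 was called with the replicate number as a block.

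**Figure D1:**
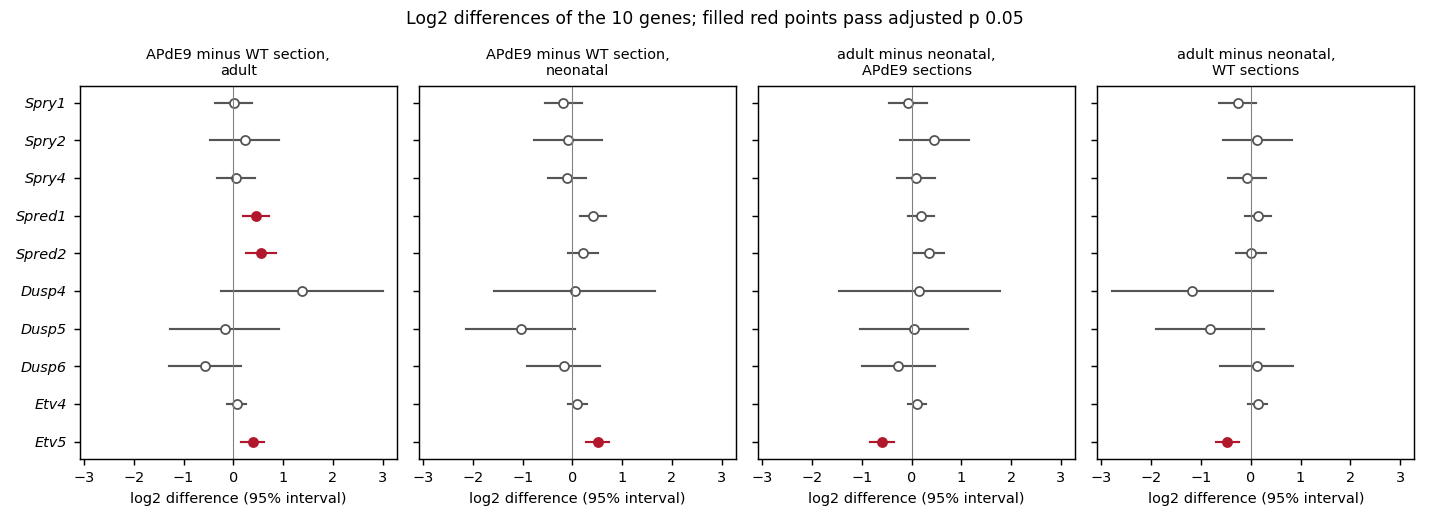
Log2 differences of the 10 genes (points) with 95% intervals (lines), one panel per comparison, with zero marked by a vertical line. Filled red points pass the adjusted p of 0.05: Spred2, Spred1 and Etv5 for section in adult cells (0.56, 0.45 and 0.39), and Etv5 in the other 3 pairwise comparisons (0.51, -0.47 and -0.59), while the intervals of Dusp4 span over 3 log2 units.

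Of the 28 probe sets, 6 were higher on APdE9 than on wild-type sections in adult cells, where 12.7% of all probe sets were called. In neonatal cells 1 was higher, where 2% were called, and the replicate block called 3 (2 of them higher). For age on APdE9 sections 2 were higher and 2 lower in adult cells, where 16.4% were called, and the replicate block called 7 (4 of them higher). For age on wild-type sections 2 were higher and 1 lower in adult cells, where 22.9% were called. The difference of the section effects was called for 1 probe set, where 6.73% were called. In the main fit, every called member probe set belonged to Spred1, Spred2, Etv5 or Etv4. In neonatal cells the block also called the single probe set of Dusp5, which was lower on APdE9 sections.

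**Figure D2:**
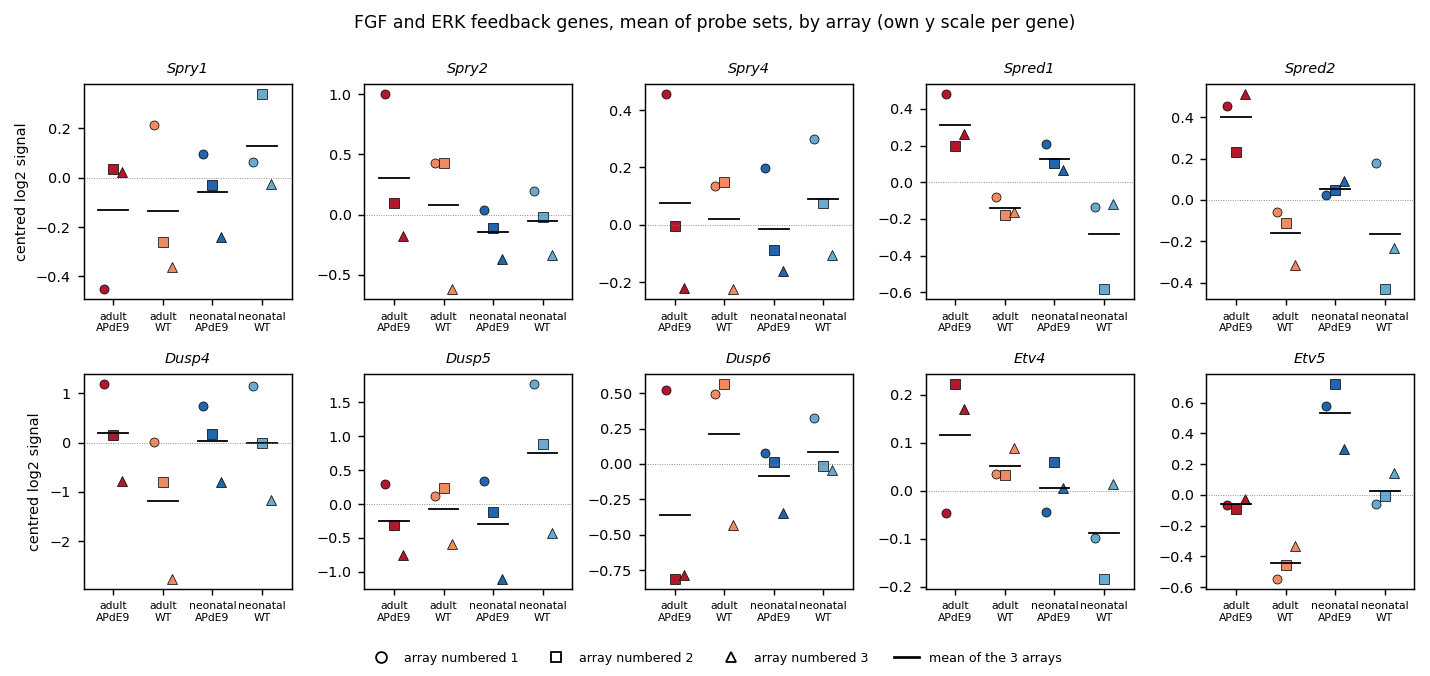
Centred log2 signal of each of the 10 genes (mean of its probe sets) on every array, with the groups along the x axis, a marker shape for each array number and a bar at the mean of 3 arrays. Each panel has its own y scale. The Etv5 groups separate by section and by age, and Spred1 and Spred2 sit higher in adult cells on APdE9 than on wild-type sections, while the arrays numbered 3 lie lowest in all 4 groups for Spry2, Spry4, Dusp4 and Dusp5.

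Sprouty proteins are membrane-associated inhibitors that block receptor signalling upstream of RAF. None of the 3 Sprouty members was called in the main fit, while Spry3, not a member, was called and is given below. Spry2 had the widest spread of the 3 members. It had 1.00, 0.09 and -0.18 in adult cells on APdE9 sections, against 0.43, 0.42 and -0.62 in adult cells on wild-type sections. It had 0.03, -0.11 and -0.37 in neonatal cells on APdE9 sections, against 0.19, -0.02 and -0.34 in neonatal cells on wild-type sections. All these groups overlapped, and the adult APdE9 array numbered 1 was the highest of the 12. The log2 difference between sections was 0.23 in adult cells (95% interval -0.46 to 0.92) and -0.09 in neonatal cells (-0.78 to 0.60). Between ages it was 0.46 on APdE9 sections (-0.23 to 1.15) and 0.13 on wild-type sections (-0.56 to 0.82). Intervals this wide do not show a lack of change.

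Spry2 is read by probe sets 1421656_at and 1436584_at, which differed in spread. On 1436584_at the adult cells on APdE9 sections had 1.45, 0.08 and -0.50, against 0.61, 0.84 and -1.04 on wild-type sections. On 1421656_at the same arrays had 0.55, 0.11 and 0.15, against 0.26, 0.01 and -0.21. Most of the spread between arrays of a group was on 1436584_at.

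Spry1 lay between -0.45 and 0.34 over the 12 arrays, with group means of -0.13 in adult cells on APdE9 sections, -0.14 in adult cells on wild-type sections, -0.06 in neonatal cells on APdE9 sections and 0.13 in neonatal cells on wild-type sections. Its section difference was 0.01 in adult cells (95% interval -0.37 to 0.38) and -0.18 in neonatal cells (-0.56 to 0.19). Spry4 lay between -0.23 and 0.46. Its section difference was 0.06 in adult cells (-0.32 to 0.44) and -0.11 in neonatal cells (-0.49 to 0.28). The adult minus neonatal difference of Spry4 was 0.09 on APdE9 sections (-0.29 to 0.47) and -0.07 on wild-type sections (-0.45 to 0.31). The adult minus neonatal difference of Spry1 was -0.07 on APdE9 sections (-0.45 to 0.30) and -0.26 on wild-type sections (-0.64 to 0.11). With array weights the one on wild-type sections was called (-0.46, limma adjusted p = 0.0123). In that fit the neonatal wild-type array numbered 2, the highest of the 12 for Spry1, weighed 7.65. The others of its group weighed 0.57 and 0.56. The groups of Spry1 and of Spry4 overlapped in all 4 pairwise comparisons.

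Spred1 and Spred2 are Sprouty-related proteins with an EVH1 domain. They suppress RAS activation, and Spred1 brings the RAS-inactivating protein neurofibromin to the membrane. Both were higher in adult cells on APdE9 than on wild-type sections, and both are shown with the promoter windows of RefSeq (GRCm38.p6, 250 bases before to 50 after the gene start), since their gene means were alike over the arrays (Pearson's r = 0.85 over 12 arrays, which share the section and age groups, given as a description). Capitals mark the PEA3-type site AGGAAG or its reverse complement CTTCCT, which Etv4 and Etv5 can bind. The windows are chr2:117120821-117121120 on the plus strand for Spred1 and chr11:19924192-19924491 on the plus strand for Spred2, each written 5′ to 3′.
Spred1 promoter: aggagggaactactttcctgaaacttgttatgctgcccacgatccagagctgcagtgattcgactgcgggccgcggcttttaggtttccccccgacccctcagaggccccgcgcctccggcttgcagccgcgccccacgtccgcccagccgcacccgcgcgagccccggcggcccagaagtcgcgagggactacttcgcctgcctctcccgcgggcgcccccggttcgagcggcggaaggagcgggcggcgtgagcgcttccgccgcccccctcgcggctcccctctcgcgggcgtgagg
Spred2 promoter: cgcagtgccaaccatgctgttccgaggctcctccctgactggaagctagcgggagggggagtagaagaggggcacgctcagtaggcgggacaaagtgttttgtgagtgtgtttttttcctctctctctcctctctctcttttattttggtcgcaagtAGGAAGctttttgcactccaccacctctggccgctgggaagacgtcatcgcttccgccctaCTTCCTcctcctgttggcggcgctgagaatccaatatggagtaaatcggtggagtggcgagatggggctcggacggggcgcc
The Spred2 window held 2 such sites, 1 on each strand, and the Spred1 window held none. Over all 32851 RefSeq promoter windows of this length 35.4% held AGGAAG on either strand, so a match is common and is given as a description only.

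Spred2 gave the highest fold of the members called in adult cells. Its gene mean was 0.46, 0.23 and 0.51 in adult cells on APdE9 sections, against -0.06, -0.11 and -0.31 in adult cells on wild-type sections. All 3 arrays on APdE9 sections lay above all 3 on wild-type sections, with a log2 difference of 0.56 ± 0.14 (SE; adjusted p = 0.0138, limma with Benjamini-Hochberg). In neonatal cells it had 0.03, 0.05 and 0.09 on APdE9 sections, against 0.18, -0.43 and -0.23 on wild-type sections. These groups overlapped, and the difference of 0.22 was not called (95% interval -0.08 to 0.52).
The adult minus neonatal difference of Spred2 was 0.35 on APdE9 sections (0.05 to 0.65; limma adjusted p = 0.0954) and 0.00 on wild-type sections (-0.30 to 0.30). The adult section call was lost without the adult wild-type array numbered 3 (0.49, limma adjusted p = 0.0559). With the arrays numbered 3 left out it was lost too (0.43, limma adjusted p = 0.164).

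The 5 probe sets of Spred2 did not move alike. Probe set 1434403_at had 0.76, 0.51 and 0.75 in adult cells on APdE9 sections, against -0.48, -0.48 and -0.58 in adult cells on wild-type sections. It had 0.27, 0.17 and 0.28 in neonatal cells on APdE9 sections, against -0.17, -0.56 and -0.29 in neonatal cells on wild-type sections. The order of its groups was thus adult on APdE9, neonatal on APdE9, neonatal on wild-type and adult on wild-type sections, and the section groups did not overlap at either age. The log2 difference between sections was 1.19 ± 0.11 in adult cells (2.28-fold, limma adjusted p = 2.61e-05) and 0.58 ± 0.11 in neonatal cells (limma adjusted p = 0.0208). Probe set 1436892_at was 1.12 ± 0.22 higher on APdE9 sections in adult cells (limma adjusted p = 0.0045), with 0.59, 0.75 and 0.07, against -0.49, -0.50 and -0.95 on wild-type sections. The other 3 probe sets, 1423001_at, 1441415_at and 1441802_at, were called in no comparison. The section effect of 1434403_at was 0.61 ± 0.16 larger in adult than in neonatal cells (95% interval 0.26 to 0.96; limma adjusted p = 0.0394), a call lost in 13 of 17 alternatives, which included leaving out any 1 array but the adult APdE9 and neonatal wild-type ones numbered 2 (up to 0.112). Between ages 1434403_at was higher in adult cells on APdE9 sections (0.43, limma adjusted p = 0.0183). That call was lost without the neonatal APdE9 array numbered 2 or the adult APdE9 array numbered 1 or 3 (up to 0.0680). The adult calls of 1434403_at and 1436892_at held in all 17 alternatives run on probe sets. The neonatal call of 1434403_at was lost in 5 of 17 alternatives. Among them were those without the neonatal wild-type array numbered 2 or 3 (0.47 and 0.61, limma adjusted p = 0.0981 and 0.0532). The others left out the neonatal APdE9 array numbered 1 or 3 (up to 0.0723) or kept only the arrays compared (0.58, limma adjusted p = 0.106).

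Spred1 had gene means of 0.48, 0.20 and 0.26 in adult cells on APdE9 sections, against -0.08, -0.18 and -0.16 in adult cells on wild-type sections. The groups did not overlap, and the difference was 0.45 ± 0.12 (limma adjusted p = 0.0223). In neonatal cells it had 0.21, 0.10 and 0.06 on APdE9 sections, against -0.14, -0.58 and -0.12 on wild-type sections. These groups did not overlap either, and the difference of 0.41 ± 0.12 missed the threshold (limma adjusted p = 0.102) but passed it with the replicate number as a block (0.41 ± 0.10, limma adjusted p = 0.0357). The difference of the 2 section effects was 0.05 (95% interval -0.33 to 0.42), so the sizes at the 2 ages were not shown to differ. The adult call was lost under quantile normalization (limma adjusted p = 0.0552), with all arrays numbered 3 left out (0.0959), and without the adult wild-type array numbered 2 or 3 or the adult APdE9 array numbered 1 (0.37 to 0.44, limma adjusted p 0.061 to 0.0837).

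Of the 8 probe sets of Spred1, 3 were called higher in adult cells on APdE9 than on wild-type sections. Probe set 1423160_at had 0.74, 0.32 and 0.58 on APdE9 sections, against -0.10, -0.12 and -0.44 on wild-type sections, a difference of 0.77 ± 0.13 (1.70-fold, limma adjusted p = 0.00196) that held in all 17 alternatives. The difference was 0.61 on 1423161_s_at and 0.47 on 1428777_at (limma adjusted p = 0.0128 and 0.0382). The call of 1423161_s_at was lost without the adult wild-type array numbered 3 or the adult APdE9 array numbered 1 (limma adjusted p up to 0.0537), and that of 1428777_at in 6 of 17 alternatives, among them without the adult wild-type array numbered 2 or 3 or the adult APdE9 array numbered 1 or 3 (up to 0.151). A probe set ending in _s_at or _x_at can bind more than one transcript, and 4 of the 8 do. With those left out of the gene means, an alternative chosen after seeing the data, 3 members were still called in adult cells.
Between ages the Spred1 gene mean differed by 0.19 on APdE9 sections (-0.08 to 0.45) and by 0.14 on wild-type sections (-0.12 to 0.41), neither called. Single probe sets were called higher in adult cells, 1445228_at on APdE9 sections (0.56, limma adjusted p = 0.0199) and 1423162_s_at on wild-type sections (0.59, limma adjusted p = 0.0212). Neither probe set was called on the other section. The call of 1445228_at was lost in 4 of 17 alternatives, among them without the neonatal APdE9 array numbered 1 or 3 or the adult APdE9 array numbered 3 (up to 0.0752). That of 1423162_s_at was lost without the neonatal wild-type array numbered 2 or the adult wild-type array numbered 1 (up to 0.0965).

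**Figure D3:**
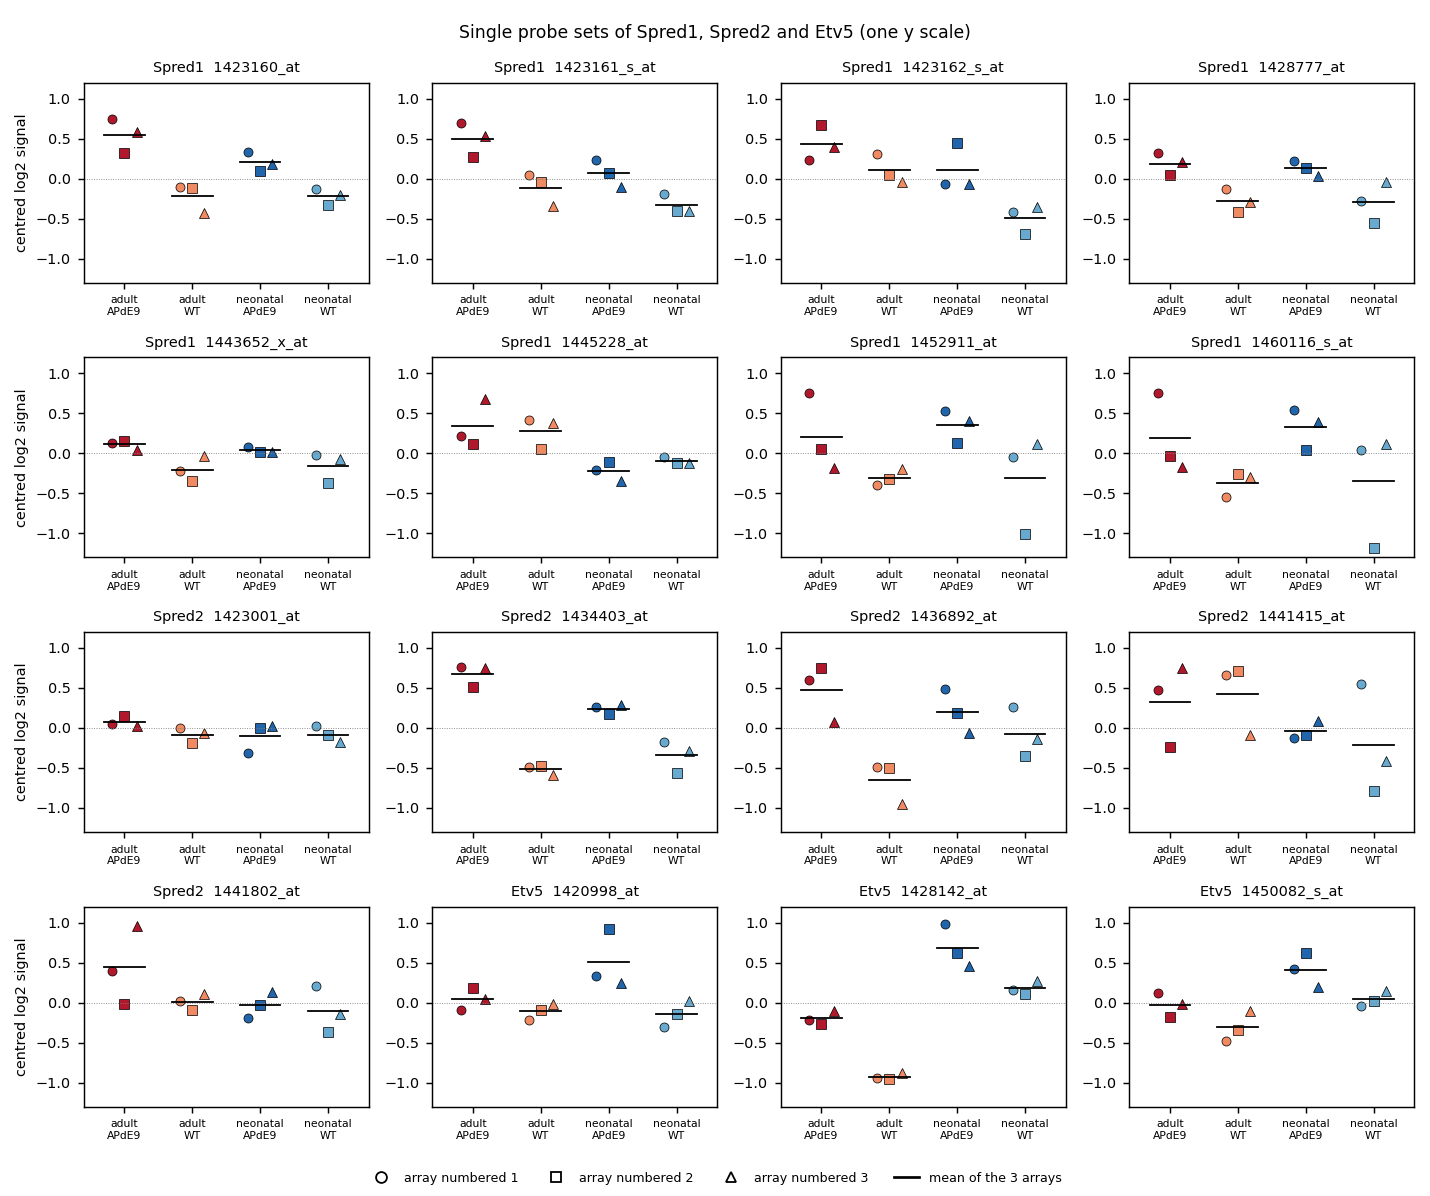
Centred log2 signal of the single probe sets of Spred1, Spred2 and Etv5 on every array, on one y scale, with the groups along the x axis, a marker shape for each array number and a bar at the mean of 3 arrays. Probe sets of 1 gene differ. Of Spred2, 1434403_at and 1436892_at were called for section in adult cells (1.19 and 1.12), and 1423001_at, 1441415_at and 1441802_at were not. Even so, the adult section groups of 1423001_at do not overlap. Probe set 1428142_at of Etv5 has the lowest values in adult cells on wild-type sections (-0.95, -0.95 and -0.87).

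Dusp6 is the cytosolic phosphatase specific for ERK, Dusp5 the nuclear one, and Dusp4 a nuclear phosphatase that also acts on JNK and p38. Each had 1 probe set, and none was called in the main fit. Dusp4 had 1.19, 0.16 and -0.78 in adult cells on APdE9 sections, against 0.00, -0.79 and -2.76 in adult cells on wild-type sections. It had 0.74, 0.17 and -0.80 in neonatal cells on APdE9 sections, against 1.14, 0.00 and -1.17 in neonatal cells on wild-type sections. In all 4 groups the array numbered 1 was the highest and the array numbered 3 the lowest, and the groups overlapped. The section difference in adult cells was 1.38 ± 0.74 (95% interval -0.25 to 3.00; limma adjusted p = 0.239), and the neonatal one was 0.04 (-1.58 to 1.67). The adult minus neonatal difference was 0.16 on APdE9 sections (-1.46 to 1.78) and -1.18 on wild-type sections (-2.80 to 0.45). With the replicate number as a block the adult section difference was called (1.38 ± 0.20, limma adjusted p = 0.000424). The block also called the age difference on wild-type sections (-1.18, limma adjusted p = 0.000595) and the difference of the section effects (1.33, limma adjusted p = 0.00846). Over all genes, arrays of the same number did not deviate together in every pair in the adult section and wild-type age comparisons. The exceptions were the pairs numbered 2 (r = -0.147 and 0.025).

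Dusp5 had 0.34, -0.12 and -1.10 in neonatal cells on APdE9 sections, against 1.78, 0.88 and -0.42 in neonatal cells on wild-type sections. The groups overlapped, and the difference of -1.04 ± 0.50 was not called (limma adjusted p = 0.37). With the replicate number as a block it was called (-1.04 ± 0.22, limma adjusted p = 0.0168). Each array on an APdE9 section lay below the array of the same number on a wild-type section. In adult cells Dusp5 had 0.29, -0.30 and -0.74 on APdE9 sections, against 0.12, 0.23 and -0.58 on wild-type sections, with a difference of -0.18 (-1.27 to 0.92). Its adult minus neonatal difference was 0.05 on APdE9 sections (-1.05 to 1.14) and -0.82 on wild-type sections (-1.91 to 0.27; limma adjusted p = 0.271). The last was called without the neonatal wild-type array numbered 3 (-1.40, limma adjusted p = 0.03). With all arrays numbered 3 left out it was called too (-1.15, limma adjusted p = 0.019). So it was with array weights (-0.87, limma adjusted p = 0.0467) and with the block (-0.82, limma adjusted p = 0.0116). Among the array weights, the neonatal wild-type array numbered 2 had 7.65.

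Dusp6 had 0.52, -0.81 and -0.78 in adult cells on APdE9 sections, against 0.50, 0.57 and -0.43 in adult cells on wild-type sections. The array numbered 1 on an APdE9 section lay with the wild-type arrays, so the groups overlapped. The difference of -0.57 ± 0.34 was not called (limma adjusted p = 0.282), and without that array it was -1.01 (limma adjusted p = 0.0216). In neonatal cells Dusp6 lay between -0.35 and 0.08 on APdE9 sections and between -0.04 and 0.32 on wild-type sections, with a difference of -0.17 (-0.91 to 0.56). Between ages it differed by -0.27 on APdE9 sections (-1.01 to 0.46) and by 0.12 on wild-type sections (-0.61 to 0.86).

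Etv4 and Etv5 are PEA3-type members of the ETS family, transcription factors that read FGF input in many tissues. Etv5 was the member called in the most comparisons, 4 of the 5. Both of its RefSeq promoter windows (GRCm38.p6) are shown because of that, with AGGAAG in capitals as above, at chr16:22439521-22439820 and chr16:22438319-22438618 on the minus strand, written 5′ to 3′.
Etv5 promoter 1: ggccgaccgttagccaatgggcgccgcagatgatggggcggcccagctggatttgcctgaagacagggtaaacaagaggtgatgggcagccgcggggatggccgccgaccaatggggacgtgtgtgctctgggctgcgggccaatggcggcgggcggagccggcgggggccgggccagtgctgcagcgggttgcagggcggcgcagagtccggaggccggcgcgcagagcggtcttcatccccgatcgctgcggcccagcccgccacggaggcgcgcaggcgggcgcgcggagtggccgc
Etv5 promoter 2: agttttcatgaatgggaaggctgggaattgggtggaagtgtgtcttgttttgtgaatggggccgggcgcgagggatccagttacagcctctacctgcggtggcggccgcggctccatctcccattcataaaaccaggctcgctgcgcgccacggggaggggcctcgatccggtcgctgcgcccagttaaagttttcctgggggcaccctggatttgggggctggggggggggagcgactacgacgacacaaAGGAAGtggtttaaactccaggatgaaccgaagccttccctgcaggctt
The first window held none of the searched motifs, and the second held 1 AGGAAG. Both strands were searched for AGGAAG, for the ETS site CCGGAAGT, for the Capicua sites TGAATGAA and TGAATGGA, for the AP-1 site TGANTCA and for the cyclic AMP response element TGACGTCA. Capicua is the repressor that ERK removes from PEA3-type genes, and AP-1 is a dimer of Fos and Jun proteins. Windows of 7 members were searched, 8 in all. AGGAAG was the sole motif found in them, in Spred2, Dusp5, Dusp6 and the second Etv5 window. No window of Spry4, Dusp4 or Etv4 was searched. Among all 32851 windows CCGGAAGT was in 3.89%, TGAATGAA in 1.3%, TGAATGGA in 1.21%, TGANTCA in 7.81% and TGACGTCA in 1.79%. A search of these letters in these windows says nothing of binding elsewhere.

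Etv5 had gene means of -0.06, -0.09 and -0.03 in adult cells on APdE9 sections, against -0.55, -0.46 and -0.33 in adult cells on wild-type sections. The groups did not overlap, and the difference was 0.39 ± 0.11 (limma adjusted p = 0.0266). In neonatal cells it had 0.58, 0.72 and 0.30 on APdE9 sections, against -0.06, -0.01 and 0.14 on wild-type sections. These groups did not overlap either, and the difference was 0.51 ± 0.11 (limma adjusted p = 0.0221). The difference of the 2 section effects was -0.12 (95% interval -0.45 to 0.21; limma adjusted p = 0.705), so the section effect was not shown to differ with age. The adult call was lost without any 1 of the adult arrays other than the wild-type one numbered 3 (0.34 to 0.40, limma adjusted p 0.0611 to 0.094), under quantile normalization (0.0926) and with the median of the probe sets (0.273). The neonatal call was lost without the neonatal wild-type array numbered 1 or 2 or the neonatal APdE9 array numbered 1 or 2 (0.41 to 0.49, limma adjusted p 0.0598 to 0.0998), with only the arrays compared (0.102), with each probe set tested (0.0591) and with the median of the probe sets (0.106).

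The order of the 4 group means of Etv5 was neonatal on APdE9 (0.53 ± 0.22), neonatal on wild-type (0.03 ± 0.11), adult on APdE9 (-0.06 ± 0.03) and adult on wild-type sections (-0.45 ± 0.11; SD, n = 3 each). Neonatal cells on wild-type and adult cells on APdE9 sections overlapped. The adult minus neonatal difference was -0.59 ± 0.11 on APdE9 sections (limma adjusted p = 0.00137) and -0.47 ± 0.11 on wild-type sections (limma adjusted p = 0.00493). Both age calls held in all 25 alternatives, with the highest limma adjusted p at 0.042. The lower Etv5 was in the adult groups, which differed from the neonatal ones in age, medium, G5 and Percoll together. These cannot be told apart.

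The 3 probe sets of Etv5 differed, and 1428142_at had the largest adult section and age differences of them. It had -0.22, -0.26 and -0.10 in adult cells on APdE9 sections, against -0.95, -0.95 and -0.87 in adult cells on wild-type sections. It had 0.98, 0.62 and 0.45 in neonatal cells on APdE9 sections, against 0.16, 0.10 and 0.27 in neonatal cells on wild-type sections. No 2 of these 4 groups overlapped. Its adult section difference was 0.73 ± 0.12 (limma adjusted p = 0.00181), and its adult minus neonatal differences were -0.88 on APdE9 and -1.10 on wild-type sections (limma adjusted p = 0.000242 and 2.62e-05), all of which held in all 17 alternatives. For section in neonatal cells no single probe set of Etv5 was called, with differences of 0.64 on 1420998_at, 0.51 on 1428142_at and 0.37 on 1450082_s_at. Probe set 1420998_at was called in no comparison, and 1450082_s_at was called only for age on APdE9 sections (-0.44, limma adjusted p = 0.0429), a call lost in 8 of 17 alternatives, 7 of which left out 1 array (up to 0.158).

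Etv4 had the narrowest spread of the members and lay between -0.18 and 0.22. Its section difference was 0.06 in adult cells (95% interval -0.12 to 0.25) and 0.10 in neonatal cells (-0.09 to 0.28). Its adult minus neonatal difference was 0.11 on APdE9 sections (-0.08 to 0.30) and 0.14 on wild-type sections (-0.05 to 0.33). These were the narrowest intervals of the 10 members. With array weights the gene-level age difference on wild-type sections was called (0.21, limma adjusted p = 0.0169). There the neonatal wild-type array numbered 2 weighed 7.65. Probe set 1443381_at was called for age on wild-type sections (0.35, limma adjusted p = 0.0341), and the call was lost in 7 of 17 alternatives, among them without any 1 of the adult wild-type arrays or the neonatal wild-type array numbered 1 or 2 (up to 0.138). Etv4 and Etv5 therefore differed in pattern, with r = -0.13 over the 12 arrays.

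The spread between arrays of 1 group was not alike among the members. The pooled within-group SD was 1.11 for Dusp4, 0.75 for Dusp5, 0.50 for Dusp6 and 0.47 for Spry2, at percentiles 99.9, 99.6, 98.4 and 98.2 of all genes. It was 0.16 for Spred1, 0.13 for Etv5 and 0.09 for Etv4, at percentiles 64.8, 49.9 and 19.0. The members without a call thus included those with the least precise measurement.

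For some members this spread went with the replicate number, but Dusp6 was not lowest on the arrays numbered 3 in all 4 groups. The array numbered 3 was the lowest of its group in all 4 groups for Spry2, Spry4, Dusp4 and Dusp5, 4 of 10 members, and for 898 of 18193 genes (4.94%). The array numbered 1 was the highest of its group in all 4 groups for Spry2 and Dusp4, and for 699 genes (3.84%). Of other ERK-induced genes, Errfi1, Epha2, Epha4, Fosl1, Egr1 and Myc, 6 of 16, were lowest on the arrays numbered 3. Of the 16, Epha2 alone was highest on the arrays numbered 1. All 3 phosphatases that act mainly on JNK and p38 (Dusp8, Dusp10 and Dusp16) were also lowest on the arrays numbered 3. So were the EGF receptor ligands Hbegf and Ereg, and Fgf18, Flrt3 and the astrocyte marker Slc1a3. Of 7 genes of cycling cells, Top2a, Ccna2, Cdk1 and Cdc20 were highest on the arrays numbered 3, as were 1353 of all genes (7.44%). In the other lists Col1a2, Col3a1, Dcn, Cnp, Olig2, Braf, Frs3 and Erbb2 were highest there too. What the number stands for is not given in the labels, and its part in these values was not tested.

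Beside Spred1 with Spred2, the pairs of members most alike over the 12 arrays were Sprouty and Dusp genes. Pearson's r was 0.88 for Spry2 with Spry4, 0.79 for Spry4 with Dusp4, and 0.75 for Spry4 with Dusp5 and with Dusp6. These points share the 4 groups and the replicate numbers, so the values are descriptions. Among the 16306 other genes searched, the gene most like each member was Asgr1 for Spry2 (0.955), Baz1a for Spry4 (0.954), Etv3 for Dusp4 (0.946), Dusp14 for Dusp5 (0.944) and Golph3 for Dusp6 (0.940). It was Slc38a7 for Spred1 (0.932), Npc2 for Spred2 (0.934), Eml6 for Etv4 (0.938), Coq5 for Etv5 (0.951) and Cry2 for Spry1 (0.845).

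Upstream of the members, few FGF ligands were called. Fgf7, keratinocyte growth factor, had 0.56, 0.51 and 0.77 in adult cells on APdE9 sections, against 1.83, 2.07 and 1.93 in adult cells on wild-type sections. It lay between -0.80 and -0.72 in neonatal cells on APdE9 sections, against -1.37 to -0.57 in neonatal cells on wild-type sections. Both adult groups lay above both neonatal groups, by 1.38 ± 0.17 on APdE9 sections and 2.83 ± 0.17 on wild-type sections (limma adjusted p = 4.89e-05 and 5.76e-08). In adult cells Fgf7 was lower on APdE9 than on wild-type sections, with a log2 difference of -1.33 ± 0.17 (0.398 times, limma adjusted p = 0.000146). The difference of the section effects was -1.45 (limma adjusted p = 0.00211). Fgf1, acidic FGF, was lower in adult cells, with differences of -0.61 on APdE9 and -0.92 on wild-type sections (limma adjusted p = 0.000772 and 1.83e-05). Of 12 FGF ligands, 1 was higher and 1 lower in adult cells on APdE9 sections, and 1 was higher and 2 lower on wild-type sections, where Fgf9 was the other lower one (-0.40). In the section comparisons limma called 0 of 12 in neonatal cells and Fgf7 alone in adult cells. These shares of the list were below those of all genes called in the same comparisons (23.5% and 30.1% for age on APdE9 and wild-type sections, 3.76% and 17.7% for section in neonatal and adult cells). The Fgf9 call was lost in 6 of 25 alternatives, among them without the adult wild-type array numbered 2 or 3 or the neonatal wild-type array numbered 1 or 2 (limma adjusted p up to 0.101).

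The FGF receptors moved in opposite directions with age. Fgfr3, a receptor of astrocytes and their precursors, was lower in adult cells, with differences of -0.98 on APdE9 and -1.01 on wild-type sections (limma adjusted p = 1.54e-05 and 8.71e-06). Fgfrl1, a receptor without a kinase domain, was lower as well (-0.84 and -1.71, limma adjusted p = 1.26e-05 and 1.56e-08), while Flrt2, a transmembrane protein that binds FGF receptors, was higher by 0.83 and 0.61. Fgfr1 was 0.74 higher in adult cells on APdE9 sections (limma adjusted p = 7.93e-05). Fgfr2 was lower in adult cells on wild-type sections (-0.62, limma adjusted p = 0.00254). Of 10 receptors and adaptors measured, 3 were higher and 2 lower in adult cells on APdE9 sections, and 2 were higher and 3 lower on wild-type sections, where 23.5% and 30.1% of all genes were called. By section, Fgfrl1 was 0.60 higher on APdE9 sections in adult cells (limma adjusted p = 0.00042) and Fgfr2 was lower there in neonatal cells (-0.60, limma adjusted p = 0.0226). The neonatal section call of Fgfr2 was lost without the neonatal wild-type array numbered 1 or 2 (limma adjusted p up to 0.104). It was also lost without the neonatal APdE9 array numbered 3 (0.0771) and with only the arrays compared (0.0885). The difference of the section effects of Fgfrl1 was 0.87 (limma adjusted p = 0.000913).

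Of 10 EGF family ligands and receptors measured, 3 were higher and none lower in adult cells on APdE9 sections, and 3 were higher and 2 lower on wild-type sections, beside 23.5% and 30.1% of all genes called. Ereg, the ligand epiregulin, was higher in adult cells by 2.64 ± 0.66 on APdE9 sections and 3.90 ± 0.66 on wild-type sections (limma adjusted p = 0.0111 and 0.000598). It had 2.20, 0.58 and 0.32 in adult cells on APdE9 sections, against -0.64, -1.93 and -2.26 in neonatal cells on APdE9 sections. On wild-type sections it had 2.58, 3.53 and 1.47 in adult cells, against -0.32, -1.44 and -2.35 in neonatal cells. The ligand Btc was higher in adult cells by 0.78 on APdE9 and 0.67 on wild-type sections (limma adjusted p = 0.0094 and 0.0175). The receptor Egfr was 0.53 higher in adult cells on APdE9 sections. On wild-type sections it had 0.20, 0.24 and 0.23 in adult cells, against -0.19, -0.15 and -0.08 in neonatal cells. Erbb3 (-0.51) and Tgfa (-0.40) were lower in adult cells on wild-type sections. The wild-type age calls of Btc and Tgfa were each lost in 4 of 25 alternatives (limma adjusted p up to 0.133 and 0.153). In the section comparisons Nrg1 was lower (-0.96, limma adjusted p = 0.00534) and Tgfa higher (0.39) on APdE9 sections in adult cells, and Erbb2 was lower in neonatal cells (-0.37). The adult section call of Tgfa was lost in 8 of 25 alternatives, among them without the adult wild-type array numbered 2 or the adult APdE9 array numbered 1 or 2 (limma adjusted p up to 0.183). The Erbb2 call was lost in 14 of 25, which included leaving out any 1 array but the neonatal wild-type one numbered 1 and the adult wild-type one numbered 3 (up to 0.213).

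Of 14 genes of the RAS to ERK cascade measured, 3 were higher and 1 lower in adult cells on APdE9 sections, and 3 were higher and 3 lower on wild-type sections, against 23.5% and 30.1% of all genes called. The adaptor Shc1 was higher in adult cells by 0.95 and 0.99 on the APdE9 and wild-type sections. Rasa1, which switches RAS off, was higher by 0.51 and 1.11. Gab1 was lower in adult cells on both (-0.39 and -0.41). In adult cells Map2k2 was 0.37 higher on APdE9 sections, and Braf was 0.54 higher on wild-type sections. The age calls of Gab1 were lost in 5 and 3 of 25 alternatives, and that of Map2k2 in 6. By section in adult cells, the MEK gene Map2k2 was higher on APdE9 sections (0.55, limma adjusted p = 0.00395), and the RAF kinase Braf (-0.50) and the adaptor Gab1 (-0.48) were lower. In neonatal cells Gab1 alone was called and was lower on APdE9 sections (-0.49, limma adjusted p = 0.0277). That call was lost without the neonatal wild-type array numbered 2 or 3 or the neonatal APdE9 array numbered 1 or 3 (up to 0.101). With all arrays numbered 3 left out it was lost too (0.166). The difference of the section effects was called for Map2k2 (0.60, limma adjusted p = 0.0289) and Rasa1 (-0.60, limma adjusted p = 0.0375). Each of these 2 calls was lost in 11 of 25 alternatives.

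Of 16 other ERK-induced feedback and target genes measured, 1 was higher and 2 lower in adult cells on APdE9 sections, and 6 were higher and 1 lower on wild-type sections, with 23.5% and 30.1% of all genes called. Il17rd, the FGF antagonist Sef, was lower in adult cells, with differences of -1.09 on APdE9 and -0.99 on wild-type sections (limma adjusted p = 4.27e-06 and 7.21e-06). Its 2 probe sets differed, with -1.96 and -0.22 on APdE9 sections and -1.62 and -0.36 on wild-type sections, and 1 was called on each. Spry3, a further Sprouty gene, was higher by 0.41 and 1.29. In adult cells 3 of the 16 were lower on APdE9 than on wild-type sections and none was higher: Spry3 (-1.02, limma adjusted p = 0.000114), Dusp1, a nuclear phosphatase of stress-activated kinases (-0.94, limma adjusted p = 0.000575), and Ccnd1, cyclin D1 (-0.40). That share of the list was near the 17.7% of all genes called there. In neonatal cells Ccnd1 alone was called and was higher on APdE9 sections (0.85 ± 0.11, limma adjusted p = 0.00163). The difference of the section effects of Ccnd1 was -1.24 (limma adjusted p = 0.000463). That difference was also called for Spry3 (-0.88, limma adjusted p = 0.00721) and Dusp1 (-0.71, limma adjusted p = 0.0415). The Dusp1 call was lost in 12 of 25 alternatives. Between ages Ccnd1 was lower in adult cells on APdE9 sections (-0.36) and higher on wild-type sections (0.88), where Spred3 was higher too (0.53). The APdE9 age call of Ccnd1 was lost in 6 of 25 alternatives, and the Spred3 call in 13. Of the 3 phosphatases that act mainly on JNK and p38, limma called 0 in each of the 5 comparisons. The adult section call of Ccnd1 was lost in 7 of 25 alternatives, among them without the adult wild-type array numbered 2 or 3 or the adult APdE9 array numbered 1 or 2 (limma adjusted p up to 0.102). The Spry3 age call on APdE9 sections was lost in 7 of 25, among them without the neonatal APdE9 array numbered 1 or 2 or the adult APdE9 array numbered 3 (up to 0.111).

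**Figure D4:**
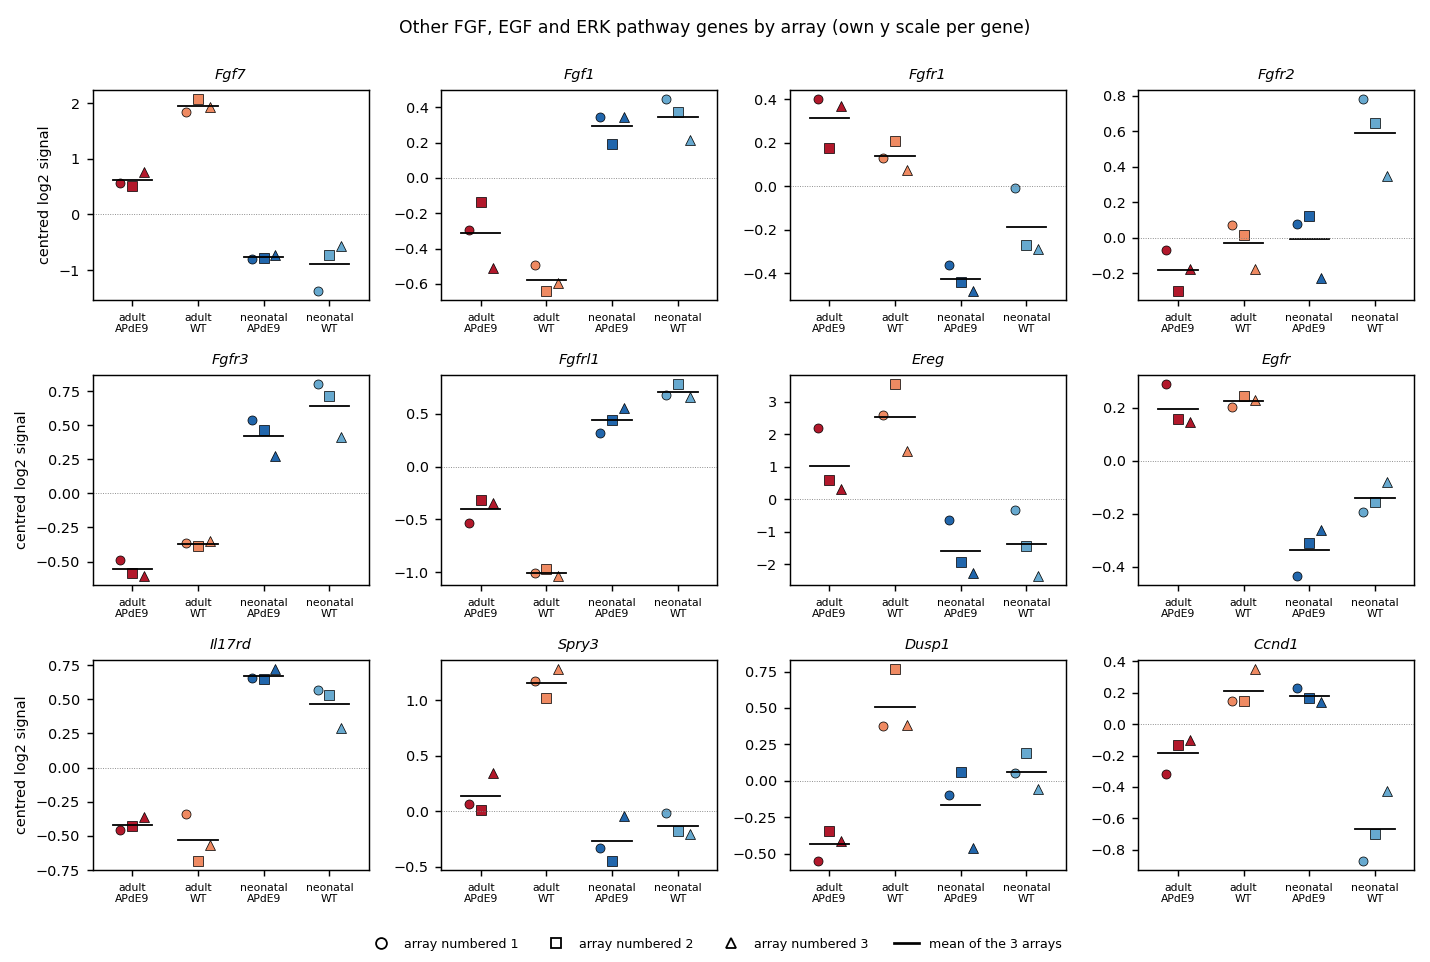
Centred log2 signal of 12 other FGF, EGF and ERK pathway genes on every array, with the groups along the x axis, a marker shape for each array number and a bar at the mean of 3 arrays, each panel on its own y scale. Fgf7 and Ereg are higher in both adult groups than in both neonatal groups, Fgf1, Fgfr3, Fgfrl1 and Il17rd are lower in both, and Ccnd1 lies lowest in neonatal cells on wild-type sections.

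Markers of cell types moved with the same groups, and their part in the values above was not tested. The counts below stand beside 17.7% of all genes called for section in adult cells, 3.76% for section in neonatal cells, 23.5% for age on APdE9 sections and 30.1% for age on wild-type sections. Of 10 astrocyte markers, all measured, 6 were lower and 1 higher in adult cells on APdE9 sections and 8 were lower and 2 higher on wild-type sections. By section, 5 were higher and 1 lower on APdE9 sections in adult cells, and 4 were lower in neonatal cells. The astrocyte list averaged -0.67 to -0.64 per array in adult cells on APdE9 sections, -0.81 to -0.76 in adult cells on wild-type sections, 0.56 to 0.70 in neonatal cells on APdE9 sections and 1.03 to 1.09 in neonatal cells on wild-type sections.
Of 13 microglia and macrophage markers, 12 were lower in adult cells on each section, and 1 was higher on wild-type sections. The median difference of the list was -3.63 on APdE9 sections and -4.49 on wild-type sections. By section 6 were higher and 1 lower on APdE9 sections in adult cells, and 2 were higher in neonatal cells. That list averaged -1.68 to -1.61 in adult cells on APdE9 sections, -2.47 to -2.19 in adult cells on wild-type sections, 2.01 to 2.20 in neonatal cells on APdE9 sections and 1.51 to 2.07 in neonatal cells on wild-type sections. Etv5, Fgfr3, Il17rd and the averages of both the astrocyte and the microglial list were thus lower in adult than in neonatal cells on each section. Any link between them was not tested. Microglia had been shaken off the cultures, per the labels. Since probe sets were centred, whether a defining marker was near zero cannot be read.

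Of 7 cycling-cell genes, all 7 were lower on APdE9 sections in adult cells (median -1.50) and 2 in neonatal cells. They averaged -1.21 to -0.80 in adult cells on APdE9 sections and 0.16 to 0.82 in adult cells on wild-type sections, the comparison in which Spred1, Spred2 and Etv5 were higher and Ccnd1 lower. The list averaged -0.29 to -0.10 in neonatal cells on APdE9 sections and 0.17 to 1.02 in neonatal cells on wild-type sections. Of 9 oligodendrocyte genes 5 were higher on APdE9 sections in adult cells, and 2 were higher and 2 lower in neonatal cells. Of 8 fibroblast and mural genes 1 was higher and 4 were lower on APdE9 sections in adult cells, and 3 were higher and 1 lower in neonatal cells. Of 9 neuronal genes 2 were lower on APdE9 sections in adult cells, and 0 of 6 endothelial genes were called by limma for section at either age.
Between ages, 5 of the 7 cycling-cell genes were lower in adult cells on APdE9 sections and limma called none on wild-type sections. Of the oligodendrocyte genes 3 were higher and 3 lower in adult cells on APdE9 sections, and 2 were higher and 3 lower on wild-type sections. Of the fibroblast and mural genes 1 was higher and 1 lower on APdE9 sections, and 4 were higher on wild-type sections. On each section 1 neuronal gene was higher and 2 were lower in adult cells. Of the endothelial genes 3 were higher and 1 lower on APdE9 sections, and 2 were higher and 2 lower on wild-type sections.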

How the data were processed

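RNA from 12 samples was measured on Affymetrix arrays. The authors' deposited table holds RMA signals, per the submitters' processing notes, as log2 values (the base is not stated and was taken as log2). For 4 arrays the deposited column is treated as a score with the same scale, since 6 values, none in a member, are damaged and were set to missing. The median of each probe set over the 12 arrays was 0 in all 45031 complete probe sets (within 1e-06), so the values are centred and the direction is as deposited. Array medians ran from -0.04 to 0.03, and the number of arrays limits the precision.

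Of 45101 probe sets 64 controls were left out. The platform annotation gave 34945 probe sets 1 gene, 932 several and 9160 none. Probe sets of 1 gene were averaged, and limma 3.58.1 (R 4.3.3) fitted all 4 groups together without a replicate block, with Benjamini-Hochberg adjustment over 18193 genes or 45037 probe sets. The method was tested on simulated data. Named were all members and their probe sets, up to 4 called genes of each pathway list per comparison by size of difference, and the gene most like each member. Genes named in the counts by replicate number fall outside this rule and were chosen after their values were seen. The members and lists were chosen with earlier results of these data known. Alternatives changed the normalization, array weights, block, samples, summary, filter and threshold, or left out 1 array. Running 17 of them on single probe sets was decided after seeing the data.

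Over all genes, arrays of the same number deviated together in neonatal cells between sections (r = 0.305, 0.147 and 0.519). They also did between ages on APdE9 sections (0.460, 0.206 and 0.473). They did not in every pair of adult cells between sections (lowest -0.147) or between ages on wild-type sections (lowest 0.025).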

Additional observations from a re-analysis of the deposited data

Results flagged for a closer look

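The section effect of Spred2 probe set 1434403_at differed between ages: the log2 difference between APdE9 and wild-type sections was 1.19 in adult cells and 0.58 in neonatal cells, a difference of 0.61 (limma adjusted p = 0.0394). Of 17 alternatives 13 lost the call, with differences of 0.43 to 0.72 over all of them. The Spred2 gene mean did not pass this test (0.35, 95% interval -0.08 to 0.77).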

How the results depend on the processing

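The number of the 10 members called moved with the processing, and the cause was not tested. For section in adult cells it was 3, and 1 under quantile normalization, 0 at a threshold of 0.01, 1 with the arrays numbered 1 and 2 only (chosen after seeing the data), and 1 to 3 with 1 array left out, with 1 without the adult wild-type array numbered 2 or 3. For section in neonatal cells it was 1, and 4 with array weights, 3 with the replicate number as a block, 0 with only the arrays compared, with the median of the probe sets or at 0.01, and 0 to 1 with 1 array left out. For age on APdE9 sections it was 1, and 2 with only the arrays compared, 3 with each probe set tested, and 1 to 2 with 1 array left out. For age on wild-type sections it was 1, and 5 with array weights, 3 with the block, 3 with each probe set tested, 2 with the arrays numbered 1 and 2 only, and 1 to 2 with 1 array left out. For the difference of the section effects it was 0, and 1 with the block or with each probe set tested, and 0 with any 1 array left out. Over all genes, same-numbered arrays did not deviate together in every pair in adult cells between sections and between ages on wild-type sections. There the block called Dusp4 (1.38, limma adjusted p = 0.000424, and -1.18, limma adjusted p = 0.000595) and, for age, Dusp5 (-0.82, limma adjusted p = 0.0116). The member it called for the difference of the section effects was Dusp4 (1.33, limma adjusted p = 0.00846). No called member turned its direction, and 56 values that were not called changed sign. Over all genes, the neonatal section count of 684 was 2160 with array weights, where 1 neonatal wild-type array weighed 7.65, 272 with only the arrays compared, 248 at 0.01, 263 without the neonatal wild-type array numbered 2, 411 and 436 without the neonatal APdE9 arrays numbered 1 and 2, and 244 with the arrays numbered 1 and 2 only. The adult section count of 3213 was 1844 at 0.01, and the APdE9 age count of 4279 was 2850. The count of 1831 for the difference of the section effects was 3427 with array weights, 818 at 0.01, 1208 and 1218 without the neonatal and the adult wild-type arrays numbered 2, and 1173 with the arrays numbered 1 and 2 only. Signal over background could not be read from centred values.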
